A study of Mus musculus with 11 samples.

Results

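RNA-seq profiles of sorted mouse mammary epithelial cells were examined for 44 genes of TGF-beta, BMP and activin signalling. The genes were taken by name from a list of superfamily ligands, latent ligand binding proteins, receptors, co-receptors, SMADs and antagonists, and all 44 were found among the 27179 genes counted. The 11 libraries comprised 3 each of CD24+CD29hi mammary stem cell-enriched basal (MaSC/basal), CD24+CD29loCD61+ luminal progenitor-enriched (LP) and CD24+CD29loCD61- mature luminal-enriched (ML) cells, all from wild-type virgin FVB/N females aged 8 weeks. A single library came from mammospheres, grown for 1 week under non-adherent conditions from MaSC/basal cells of such mice, and another from Comma Dβ (CommaD-βGeo), an established line derived from the mid-pregnancy Balb/c mammary gland. The cultured types had no replicate, and the line also differed from the sorted cells in strain and physiological state. Of the 44 genes, 42 passed the low-count filter, which kept 15422 genes with more than 0.5 CPM (counts scaled to library size) in at least 3 libraries. Bmp5 and Grem1 did not.

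TGF-beta superfamily ligands are secreted dimers that assemble type I and type II serine/threonine kinase receptors on the cell surface. TGF-betas and activins act mainly through SMAD2 and SMAD3, BMPs through SMAD1, SMAD5 and SMAD9, and both branches share SMAD4. Latent TGF-beta binding proteins hold the ligand in the matrix, secreted antagonists such as follistatin and noggin bind ligands before they reach a receptor, and SMAD6 and SMAD7 act as feedback inhibitors inside the cell. In the mammary gland TGF-beta is known for restraining ductal growth.

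The sorted populations carried the markers of their labels: 5 basal markers, among them the keratins Krt5 and Krt14, summed to 13706 to 17578 CPM in MaSC/basal and to 582 to 866 CPM in LP and ML libraries. Library totals ran from 19958838 to 75795034 counted reads, so that 0.5 CPM stood for 9.37 to 37.7 reads. The name submitted for MaSC/basal replicate 1 contains p53 although its genotype is given as wild type, and without it 26 members rather than 30 passed the test against LP and 24 rather than 29 against ML. Nog, called in both comparisons, fell below the low-count filter without this library and was not tested. ML replicate 2 carried 34.0 CPM of Itgb3, which encodes CD61, against 8.68 and 4.51 CPM in the other ML libraries, and ML replicate 3 carried 141 CPM of Krt5 against 13.2 and 14.6 CPM. The 6 fibroblast markers summed to 1217 CPM in LP replicate 2 and to 256 and 556 CPM in the other LP libraries. Endothelial markers summed to 46.4 to 96.2 CPM in MaSC/basal, 10.7 to 27.3 CPM in LP and 7.60 to 39.5 CPM in ML libraries. Exons of 15 members overlap those of another annotated gene (Tgfb2, Tgfb3, Bmp4, Bmp5, Bmp6, Ltbp2, Ltbp3, Bmpr1a, Acvrl1, Acvr2a, Tgfbr3, Eng, Smad5, Fst and Chrd), and reads in the overlap cannot be told apart where strand was not used in counting. For Tgfbr3 and Smad5 the other gene lies on the same strand, so counting by strand would not separate such reads either. In bulk samples, fewer cells of a type and less RNA per cell cannot be told apart.

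Most members differed between the sorted populations, more often with the higher level in MaSC/basal cells. Against LP cells, 20 of the 42 tested members were higher in MaSC/basal, where 29.4% of all genes tested were, and 10 were higher in LP, where 28% of all genes were (edgeR quasi-likelihood test, adjusted p under 0.05). Against ML cells, 19 were higher in MaSC/basal (28.9% of all genes) and 10 in ML (29.7%). LP and ML cells differed in fewer members, with 12 higher in LP (14.3% of all genes) and 9 in ML (17.5%). The calls with a log2 fold change over 1 in size numbered 22, 21 and 13 in the comparisons of MaSC/basal with LP, MaSC/basal with ML and LP with ML, against 36.4%, 37.8% and 16.8% of all genes. The median size of the log2 fold change over the 42 members was 1.18, 1.06 and 0.62 in the same order, beside 0.69, 0.72 and 0.43 over all genes tested. The libraries of a pair of groups did not overlap for 33, 29 and 21 of the 42 members, against 63.9%, 65.5% and 47.9% of all genes. All 30, 29 and 21 called members kept their direction within each library batch that held both populations, and batch 3 held no MaSC/basal library.

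**Figure D1:**
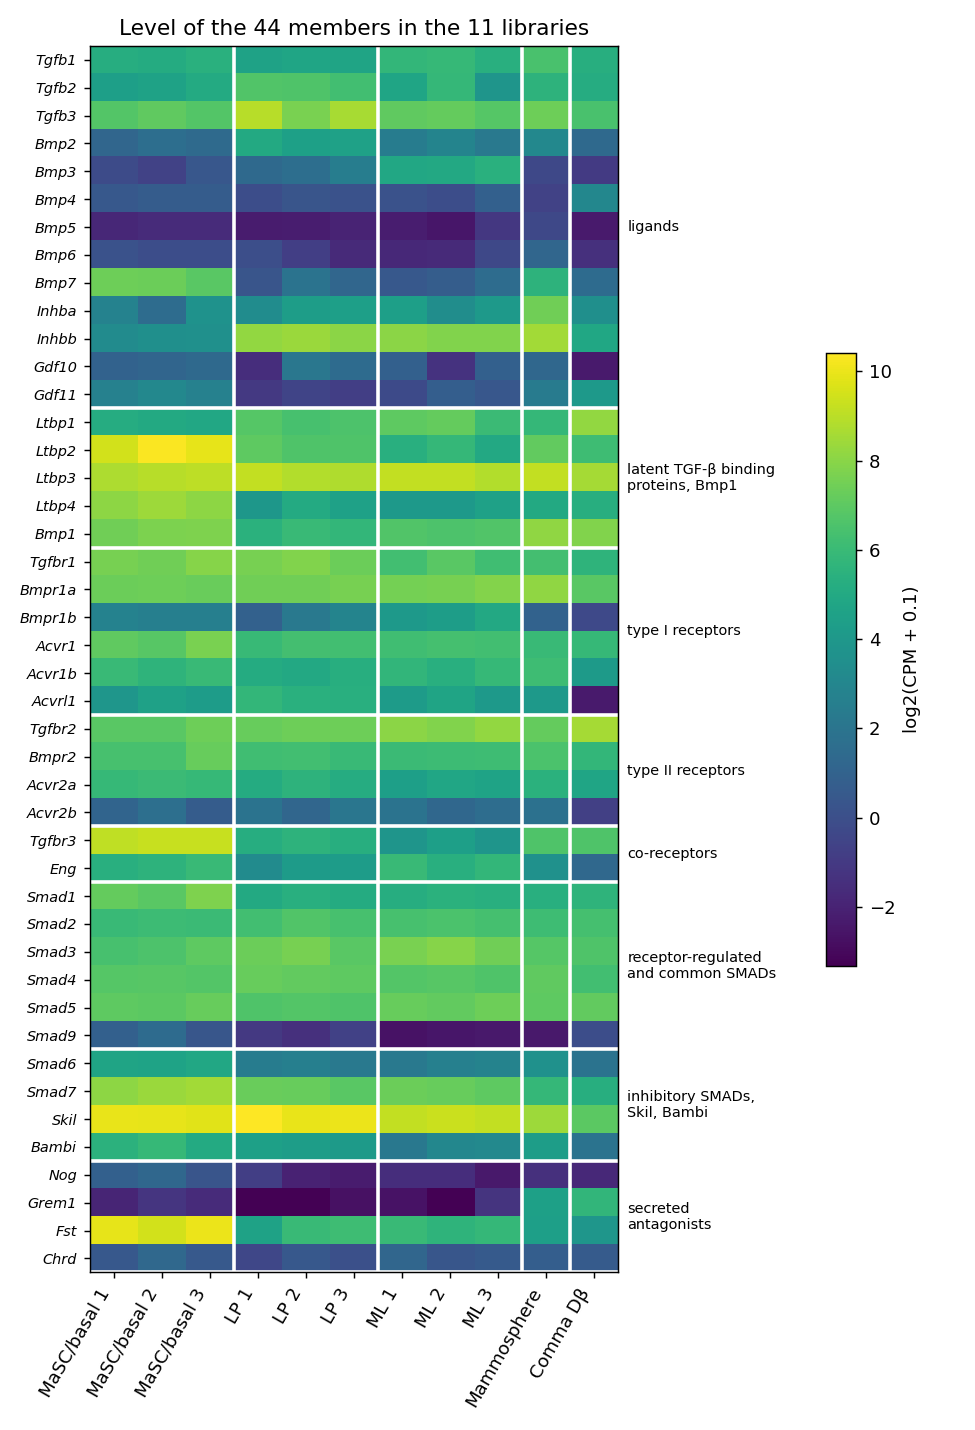
Level of the 44 members (rows, grouped by role) in each of the 11 libraries (columns), as log2 of TMM-scaled CPM plus 0.1, from dark (low) to yellow (high). Fst, Ltbp2, Ltbp4, Tgfbr3 and Bmp7 stand out in the 3 MaSC/basal columns, Inhbb in the LP, ML and mammosphere columns, and Grem1 in the cultured columns.

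Per kilobase of exon, the order of the members also differed between populations. In MaSC/basal cells the highest mean level was that of Fst, 387 ± 73.1 RPKM (SD, n = 3), followed by Ltbp2 with 151 ± 45 RPKM, Skil with 141 ± 5.83 RPKM and Tgfbr3 with 98.5 ± 6.93 RPKM. Ltbp2 and Skil, neighbours in this order, lay within their spread. LP cells held most Skil, 168 ± 31.7 RPKM, then Tgfb3, 107 ± 43.5 RPKM, and Ltbp3, 93.8 ± 14.6 RPKM. The LP libraries ranged from 146.7 to 204 RPKM for Skil and from 60.02 to 145.7 RPKM for Tgfb3, close together but without overlap. Tgfb3 and Ltbp3 lay within their spread. ML cells held most Ltbp3, 103 ± 14 RPKM, and Skil, 88.9 ± 6.23 RPKM, which again lay within their spread, with Inhbb next at 55.7 ± 5.70 RPKM.

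Promoter sequences are shown for 4 members whose levels differed widely between sample types: Ltbp2, high in MaSC/basal cells, Inhbb, high in luminal cells, Smad6, a feedback inhibitor, and Grem1, high in culture. They run from 250 bases before to 50 bases after the RefSeq start site (GRCm38.p6), lie on the minus strand and read 5′ to 3′; 30 of the 44 members had an entry. Capitals mark 2 palindromic motifs, each its own reverse complement and sharing no overlap: GTCTAGAC, a SMAD-binding element, and GGCGCC, a GC-rich element bound by BMP-regulated SMADs.
Ltbp2, chr12:84876442-84876741: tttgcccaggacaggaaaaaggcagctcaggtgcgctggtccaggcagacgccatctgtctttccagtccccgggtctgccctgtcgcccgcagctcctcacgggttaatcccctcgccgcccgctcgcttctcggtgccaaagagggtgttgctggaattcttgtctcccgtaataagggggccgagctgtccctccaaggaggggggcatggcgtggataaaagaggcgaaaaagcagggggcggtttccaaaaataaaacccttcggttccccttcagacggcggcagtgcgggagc
Inhbb, chr1:119422199-119422498: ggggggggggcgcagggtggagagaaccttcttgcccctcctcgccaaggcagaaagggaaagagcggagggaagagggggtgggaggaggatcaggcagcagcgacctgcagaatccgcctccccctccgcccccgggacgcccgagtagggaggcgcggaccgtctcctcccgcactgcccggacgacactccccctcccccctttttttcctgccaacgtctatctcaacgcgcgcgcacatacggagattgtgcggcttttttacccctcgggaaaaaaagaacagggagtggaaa
Smad6, chr9:64022010-64022309: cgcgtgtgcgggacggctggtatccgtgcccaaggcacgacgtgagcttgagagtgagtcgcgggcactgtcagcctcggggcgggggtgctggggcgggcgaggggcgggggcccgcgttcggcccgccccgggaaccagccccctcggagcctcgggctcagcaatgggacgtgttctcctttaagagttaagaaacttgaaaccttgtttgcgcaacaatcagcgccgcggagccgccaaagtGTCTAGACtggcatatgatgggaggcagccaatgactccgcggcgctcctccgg
Grem1, chr2:113758599-113758898: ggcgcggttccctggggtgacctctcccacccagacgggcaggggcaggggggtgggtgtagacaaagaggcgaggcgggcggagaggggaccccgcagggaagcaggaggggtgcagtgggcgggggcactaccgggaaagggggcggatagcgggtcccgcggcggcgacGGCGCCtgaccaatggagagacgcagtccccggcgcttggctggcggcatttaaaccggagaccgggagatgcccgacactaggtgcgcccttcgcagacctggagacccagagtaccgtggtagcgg
GTCTAGAC was found in 70 of 32851 RefSeq promoters (0.213%) and in 1 of the 30 members' promoters, that of Smad6, where it began 4 bases before the start site. The other 14 members, among them Smad7, Skil, Bambi, Nog and Fst, had no entry and were not searched. GGCGCC was found in 3898 promoters (11.9%) and in those of 10 of the 30 members (33.3%): Gdf10, Ltbp4, Tgfbr1, Bmpr1a, Acvr1b, Bmpr2, Smad5, Smad9, Grem1 and Chrd. The shares over all promoters count each promoter. Those of the members count each gene, as positive if any of its promoters held the motif, so the shares are not strictly alike. Neither motif was in the Ltbp2 and Inhbb windows.

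Among the ligands, Bmp7 and Gdf11 marked MaSC/basal cells, Inhbb both luminal populations, Bmp2, Tgfb2 and Tgfb3 LP cells and Bmp3 ML cells. Of 12 ligands tested, 3 were higher in MaSC/basal and 5 in LP cells, 3 were higher in MaSC/basal and 4 in ML cells, and 3 were higher in LP and 3 in ML cells. The shares of all genes were 29.4% and 28%, 28.9% and 29.7%, and 14.3% and 17.5% in the same order, and the counts for the other roles below are set against the same shares. Nothing is read from the counts of so few genes about ligands as a group. Bmp7, a BMP ligand, was measured at 168, 164 and 119.87 CPM in the MaSC/basal, 1.13, 3.7 and 2.19 CPM in the LP and 1.27, 1.54 and 2.78 CPM in the ML libraries. The MaSC/basal libraries were thus far above all luminal ones. Its difference from LP cells was 5.96 log2 units (SE 0.44, adjusted p = 2.41e-06) and its difference from ML cells 6.39 log2 units (SE 0.45, adjusted p = 1.53e-06). Gdf11, a relative of myostatin, had 6.39, 8.29 and 6.36 CPM in MaSC/basal, 0.388, 0.599 and 0.48 CPM in LP and 0.735, 1.59 and 1.23 CPM in ML libraries, without overlap between any pair of populations. It was higher in MaSC/basal cells, by 3.80 log2 units (SE 0.34, adjusted p = 7.49e-06) relative to LP and by 2.54 log2 units (SE 0.30, adjusted p = 5.22e-05) relative to ML cells. Its lower level in LP than in ML cells, by 1.26 log2 units (SE 0.33, adjusted p = 0.0181), was lost without LP replicate 1 (adjusted p = 0.0682) or ML replicate 2 (adjusted p = 0.0648). Bmp6 lay near the detection limit, at 1.02, 0.856 and 0.847 CPM in MaSC/basal, 0.881, 0.486 and 0.213 CPM in LP and 0.198, 0.212 and 0.683 CPM in ML libraries. Its excess in MaSC/basal over ML cells, 1.45 log2 units (SE 0.55, adjusted p = 0.0424), was lost on leaving out any of 6 libraries in turn (all 3 MaSC/basal, LP replicate 2 and ML replicates 1 and 2), with adjusted p from 0.0523 to 0.148.

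Inhbb, which encodes the beta-B subunit of activins and inhibins, gave the largest excess of LP over MaSC/basal cells among the 42 members tested. Its level was 9.78, 11.5 and 11.9 CPM in MaSC/basal, 294, 331 and 259 CPM in LP and 265, 222 and 224 CPM in ML libraries. Every luminal library was above every MaSC/basal library. LP exceeded MaSC/basal cells by 4.74 log2 units (SE 0.17, adjusted p = 7.39e-08), or 26.6-fold, and ML exceeded them by 4.42 log2 units (SE 0.17, adjusted p = 8.29e-08), or 21.4-fold. LP and ML libraries differed by 0.31 log2 units (SE 0.14, adjusted p = 0.122), which did not pass the test. The beta-A subunit gene Inhba had 6.75, 2.83 and 12.9 CPM in MaSC/basal, 10.04, 20.05 and 21.7 CPM in LP and 21.2, 10.8 and 16.5 CPM in ML libraries. MaSC/basal replicate 3 overlapped the luminal libraries, and the differences from LP, 1.21 log2 units (SE 0.49, adjusted p = 0.0577), and from ML cells, 1.11 log2 units (SE 0.49, adjusted p = 0.0753), missed the threshold. They passed it without MaSC/basal replicate 3, with adjusted p = 0.0116 and 0.0143, and the one from LP cells also without LP replicate 1 (adjusted p = 0.0323). Both passed with DESeq2 (adjusted p = 0.023 and 0.0405), and the one from LP cells with limma voom (adjusted p = 0.0364) and with no filter beyond 1 read (adjusted p = 0.0437).

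Bmp2 had its highest level in LP cells, with 32.8, 22.4 and 22.9 CPM, against 2.2, 2.99 and 2.6 CPM in MaSC/basal and 5.45, 7.28 and 4.6 CPM in ML libraries. The 3 populations did not overlap. LP exceeded MaSC/basal cells by 3.33 log2 units (SE 0.25, adjusted p = 2.99e-06) and ML cells by 2.16 log2 units (SE 0.24, adjusted p = 0.0008), and ML exceeded MaSC/basal cells by 1.16 log2 units (SE 0.24, adjusted p = 0.00189). Tgfb3, a TGF-beta isoform, was also highest in LP cells, with more spread between replicates: 493, 203 and 392 CPM in LP, 106, 133 and 108 CPM in MaSC/basal and 133, 142 and 113 CPM in ML libraries. LP cells were higher than MaSC/basal by 1.65 log2 units (SE 0.28, adjusted p = 0.000589) and than ML by 1.49 log2 units (SE 0.28, adjusted p = 0.00385), and no LP library overlapped the others. Tgfb2, the isoform with a high dependence on betaglycan, had 103, 99.6 and 75.7 CPM in LP, 21.3, 24.3 and 33.7 CPM in MaSC/basal and 27.4, 57 and 14.5 CPM in ML libraries. The highest ML value belonged to ML replicate 2, the library with the raised Itgb3, and the part of LP cells in that value was not tested. LP was above MaSC/basal by 1.81 log2 units (SE 0.41, adjusted p = 0.00363). The excess over ML cells, 1.48 log2 units (SE 0.41, adjusted p = 0.0208), was lost without LP replicate 1 (adjusted p = 0.054), LP replicate 2 (adjusted p = 0.0521) or ML replicate 1 (adjusted p = 0.0772).

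Bmp3, a BMP with inhibitory activity, rose to 30.7, 31.6 and 42.2 CPM in ML libraries from 0.78, 0.558 and 1.22 CPM in MaSC/basal and 2.47, 3.07 and 5.55 CPM in LP libraries. No libraries of different populations overlapped. ML exceeded MaSC/basal cells by 5.34 log2 units (SE 0.39, adjusted p = 2.12e-06), a 40.6-fold difference, and LP cells by 3.26 log2 units (SE 0.36, adjusted p = 0.0008), and LP exceeded MaSC/basal by 2.09 log2 units (SE 0.36, adjusted p = 0.000723). Tgfb1 covered a narrow range, from 24.1 to 59.1 CPM over the 9 sorted libraries. It was lower in LP than in MaSC/basal by 0.57 log2 units (SE 0.15, adjusted p = 0.00963) and than in ML by 0.99 log2 units (SE 0.15, adjusted p = 0.00177), while its excess in ML over MaSC/basal, 0.42 log2 units (SE 0.15, adjusted p = 0.0361), was lost on leaving out any of 5 libraries in turn (MaSC/basal replicates 1 and 2, LP replicate 3, ML replicates 1 and 2), with adjusted p from 0.0545 to 0.13. Bmp4 (0.846 to 1.78 CPM) and Gdf10 (0.247 to 4.34 CPM) passed in no sorted comparison, and Bmp5, untested, lay between 0.0797 and 0.364 CPM.

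**Figure D2:**
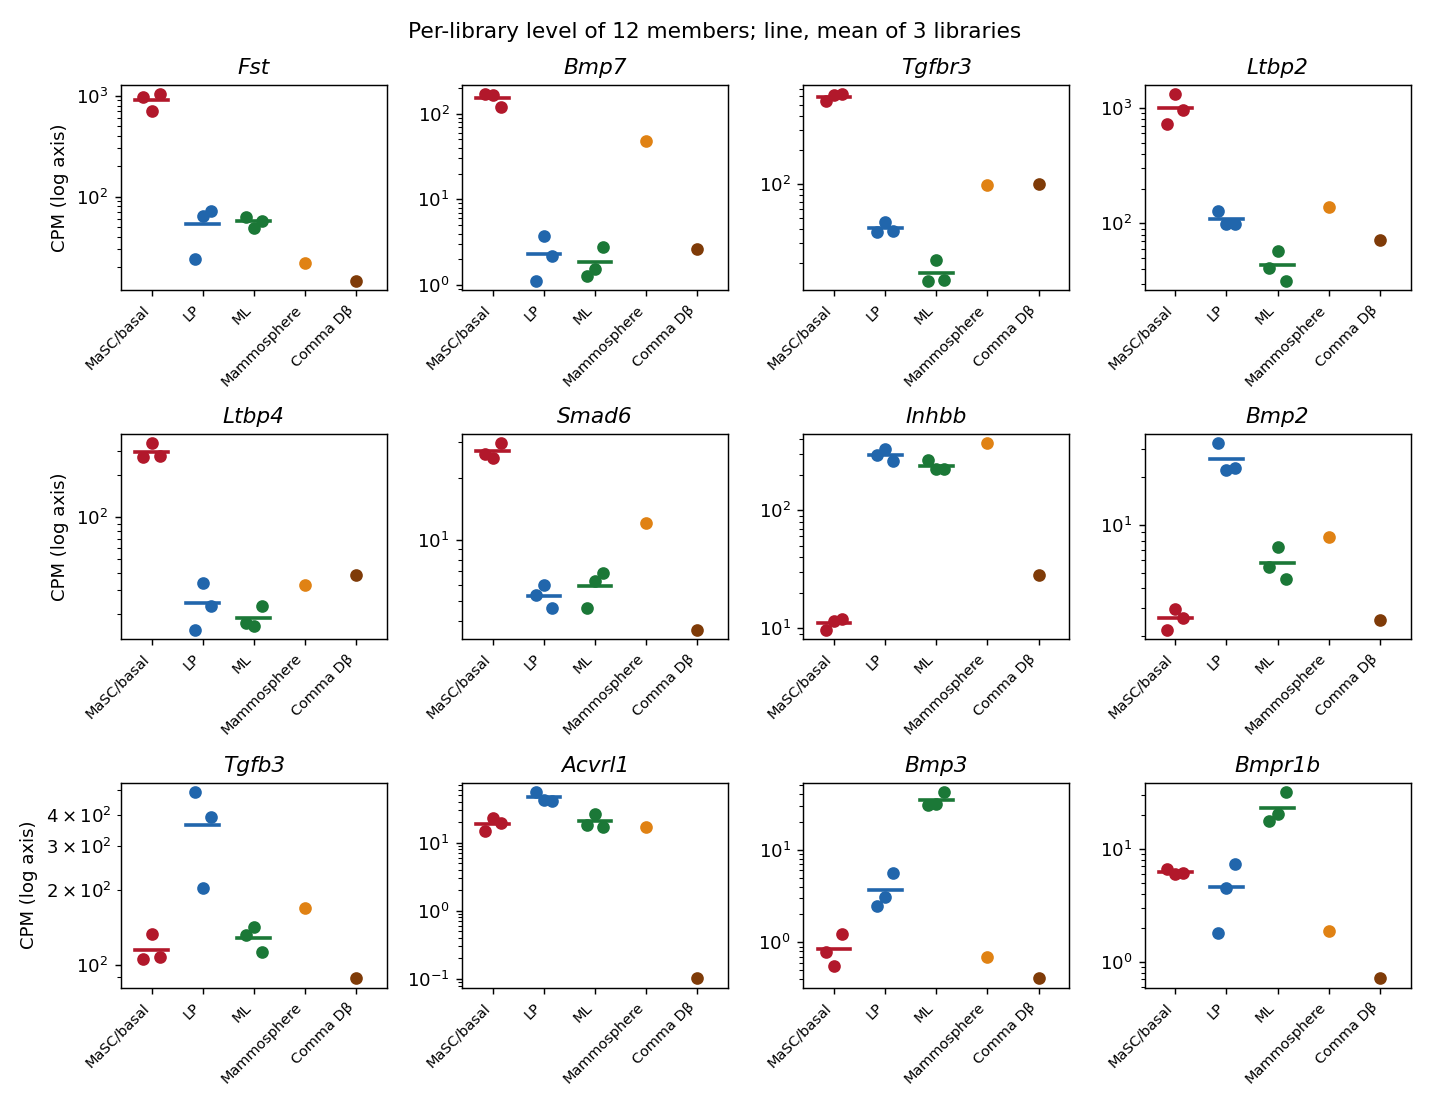
TMM-scaled CPM (log axis) of 12 members in each library, by sample type, with a line at the mean of 3 libraries for the sorted populations and 1 point for each cultured type. The top 6 panels (Fst, Bmp7, Tgfbr3, Ltbp2, Ltbp4, Smad6) show members highest in MaSC/basal cells, and the others show members highest in LP, in ML or in both luminal populations.

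The latent TGF-beta binding proteins split in opposite directions. Ltbp2 and Ltbp4 were higher in MaSC/basal cells, Ltbp1 was higher in both luminal populations, and Ltbp3 passed in no comparison. Ltbp2, a matrix protein of the family that binds no latent TGF-beta itself, had 719, 1309.94 and 957 CPM in MaSC/basal, 129, 99.5 and 97.8 CPM in LP and 41.1, 57.7 and 31.9 CPM in ML libraries, with no overlap. It exceeded LP by 3.20 log2 units (SE 0.29, adjusted p = 8.57e-06) and ML by 4.51 log2 units (SE 0.31, adjusted p = 1.26e-06), and LP exceeded ML by 1.32 log2 units (SE 0.27, adjusted p = 0.00573). Ltbp4 was at 272, 342 and 276 CPM in MaSC/basal, 15.5, 33.8 and 23.1 CPM in LP and 17.3, 16.5 and 22.9 CPM in ML libraries, where the luminal populations overlapped. The MaSC/basal excess was 3.61 log2 units (SE 0.28, adjusted p = 3.39e-06) over LP and 3.98 log2 units (SE 0.28, adjusted p = 1.75e-06) over ML. Ltbp1 showed the reverse, with 36.5, 31.9 and 30.5 CPM in MaSC/basal against 113, 86.1 and 97.2 CPM in LP and 129, 146 and 65.8 CPM in ML libraries. LP was higher by 1.58 log2 units (SE 0.26, adjusted p = 0.000486) and ML by 1.79 log2 units (SE 0.26, adjusted p = 0.000204). Ltbp3 ranged only from 428 to 581 CPM. Bmp1, a metalloprotease that processes procollagen and releases ligands rather than acting as one, had 176, 209 and 217 CPM in MaSC/basal, 44.4, 64.7 and 54.3 CPM in LP and 105, 97.5 and 105 CPM in ML libraries, and the populations did not overlap. MaSC/basal cells were above LP by 1.88 log2 units (SE 0.16, adjusted p = 5.88e-06) and above ML by 0.97 log2 units (SE 0.16, adjusted p = 0.000381), and ML were above LP by 0.91 log2 units (SE 0.16, adjusted p = 0.00263).

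**Figure D3:**
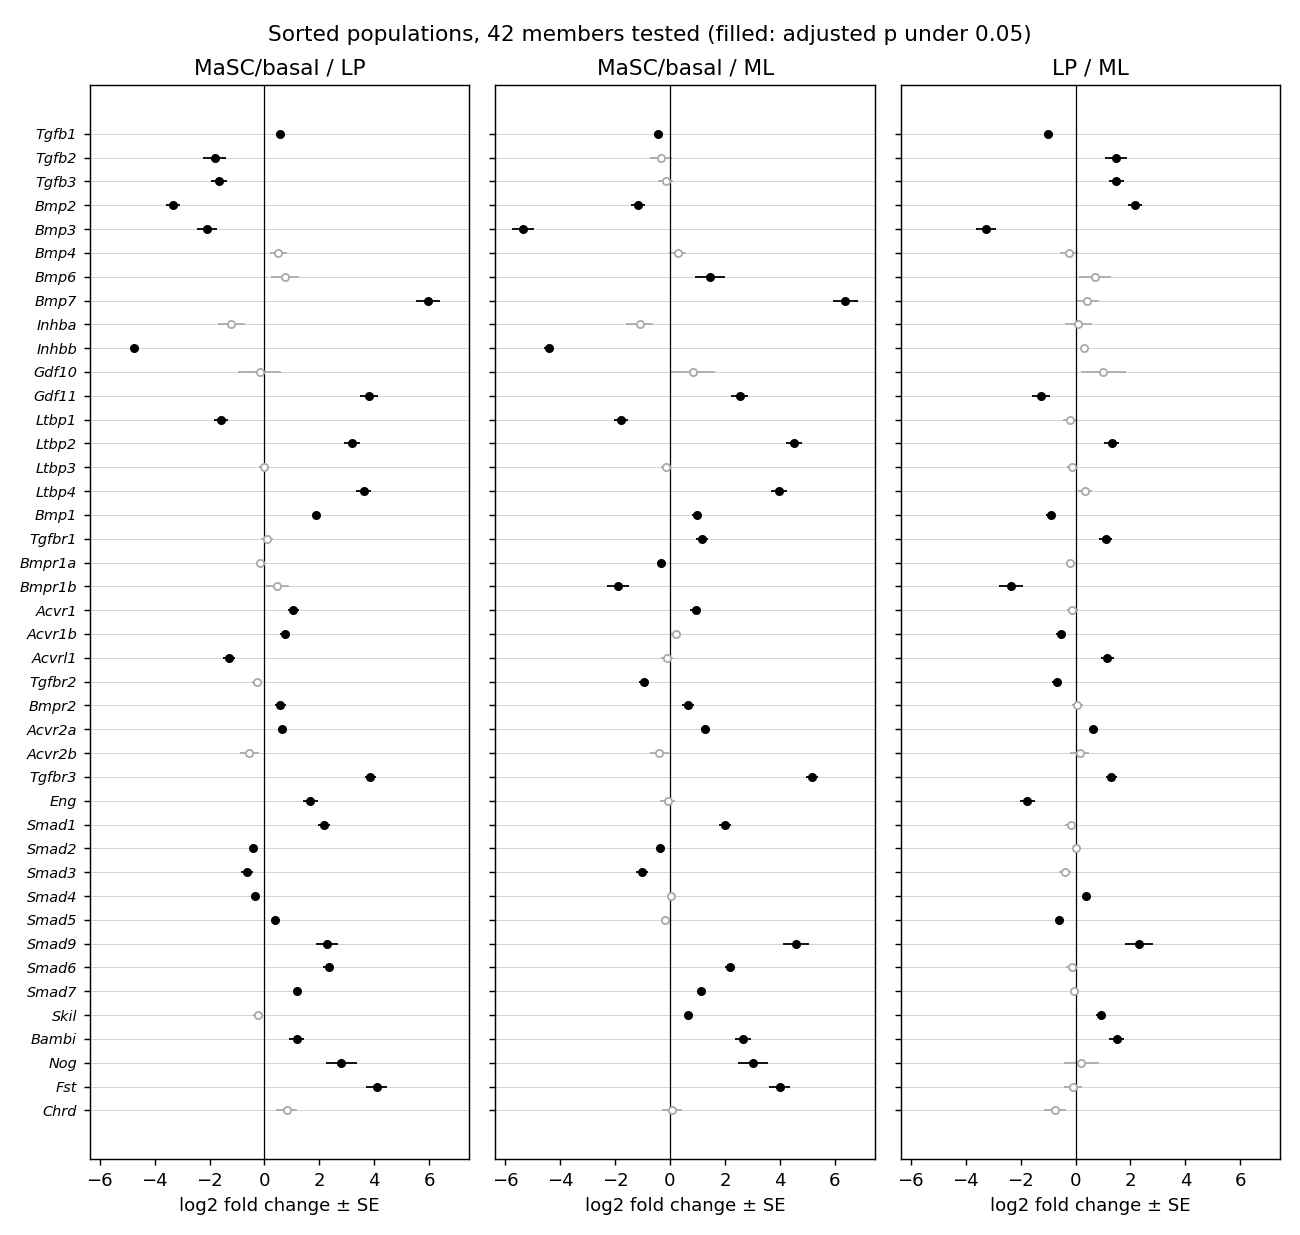
Log2 fold change with its standard error for the 42 members tested, in MaSC/basal over LP, MaSC/basal over ML and LP over ML cells; filled points passed adjusted p under 0.05. Bmp7, Tgfbr3, Fst and Ltbp4 lie far to the right in the first pair of panels and Inhbb far to the left, while the third panel spans a narrower range.

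Of the 6 type I receptors, 2 were higher in MaSC/basal and 1 in LP cells, 2 were higher in MaSC/basal and 2 in ML cells, and 2 were higher in LP and 2 in ML cells. Tgfbr1, the TGF-beta type I receptor (ALK5), was lower in ML cells, with 77.1, 120.46 and 74.3 CPM against 197, 175 and 243 CPM in MaSC/basal and 193, 228 and 159 CPM in LP libraries. ML libraries overlapped neither of the others, and lay below MaSC/basal by 1.18 log2 units (SE 0.22, adjusted p = 0.00113) and below LP by 1.09 log2 units (SE 0.22, adjusted p = 0.00562). Bmpr1b (ALK6), a BMP receptor, was highest in ML cells, with 17.5, 20.2 and 31.8 CPM against 6.63, 5.94 and 6.1 CPM in MaSC/basal and 1.8, 4.53 and 7.36 CPM in LP libraries. The ML excess was 1.89 log2 units (SE 0.42, adjusted p = 0.00282) over MaSC/basal and 2.36 log2 units (SE 0.43, adjusted p = 0.00343) over LP cells. Acvr1 (ALK2), which serves BMPs, was highest in MaSC/basal libraries at 132, 115 and 200.26 CPM, against 61.8, 78.6 and 75.4 CPM in LP and 73.6, 82.3 and 77.9 CPM in ML libraries, differing by 1.05 log2 units (SE 0.20, adjusted p = 0.00124) and 0.94 log2 units (SE 0.20, adjusted p = 0.00233). Acvr1b (ALK4), the activin type I receptor, ranged from 31.1 to 64.6 CPM. It was higher in MaSC/basal than in LP cells by 0.74 log2 units (SE 0.17, adjusted p = 0.00354), and its excess in ML over LP cells, 0.53 log2 units (SE 0.17, adjusted p = 0.0369), was lost without LP replicate 1 or 2 or ML replicate 1 or 3 (adjusted p from 0.102 to 0.14). Bmpr1a (ALK3) ranged from 156 to 237 CPM, and its excess in ML over MaSC/basal cells, 0.34 log2 units (SE 0.13, adjusted p = 0.0461), was lost with library batch as a replicate block (adjusted p = 0.0878) and without any of 8 libraries in turn (each sorted library but ML replicate 1), with adjusted p from 0.0525 to 0.174. It was also lost with DESeq2 size factors (adjusted p = 0.0533), without composition scaling (adjusted p = 0.0546) and with no filter beyond 1 read (adjusted p = 0.0641).

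Acvrl1 and Eng, the ALK1 receptor and the co-receptor endoglin, are best known from blood vessels, so their values were set beside those of endothelial markers. Acvrl1 was at 14.6, 22.8 and 19.3 CPM in MaSC/basal, 55.4, 41.7 and 40.9 CPM in LP and 18.3, 26.2 and 17 CPM in ML libraries. LP libraries were above all others, by 1.28 log2 units (SE 0.22, adjusted p = 0.000737) over MaSC/basal and by 1.16 log2 units (SE 0.22, adjusted p = 0.00456) over ML cells. The 6 endothelial markers summed to 10.7 to 27.3 CPM in LP libraries. Eng was at 39.96, 46.7 and 63.7 CPM in MaSC/basal, 9.9, 18.4 and 19 CPM in LP and 64.2, 41 and 54.5 CPM in ML libraries. LP cells were below MaSC/basal by 1.67 log2 units (SE 0.28, adjusted p = 0.000572) and below ML by 1.76 log2 units (SE 0.28, adjusted p = 0.00198). Among the endothelial markers, 5 of 6 were also higher in MaSC/basal than in LP cells. Between LP and ML cells their adjusted p ranged from 0.269 to 0.972, which does not show equal levels. ML replicates 2 and 3 summed to 34.1 and 39.5 CPM, above every LP library. In ML replicate 1, Eng was 64.2 CPM at a summed endothelial level of 7.60 CPM, the lowest of the sorted libraries, with 2.94 CPM of Pecam1. None of the 6 endothelial markers was at 0 in a sorted library, and the part of endothelial cells in the levels of Eng and Acvrl1 was not tested in any population.

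**Figure D4:**
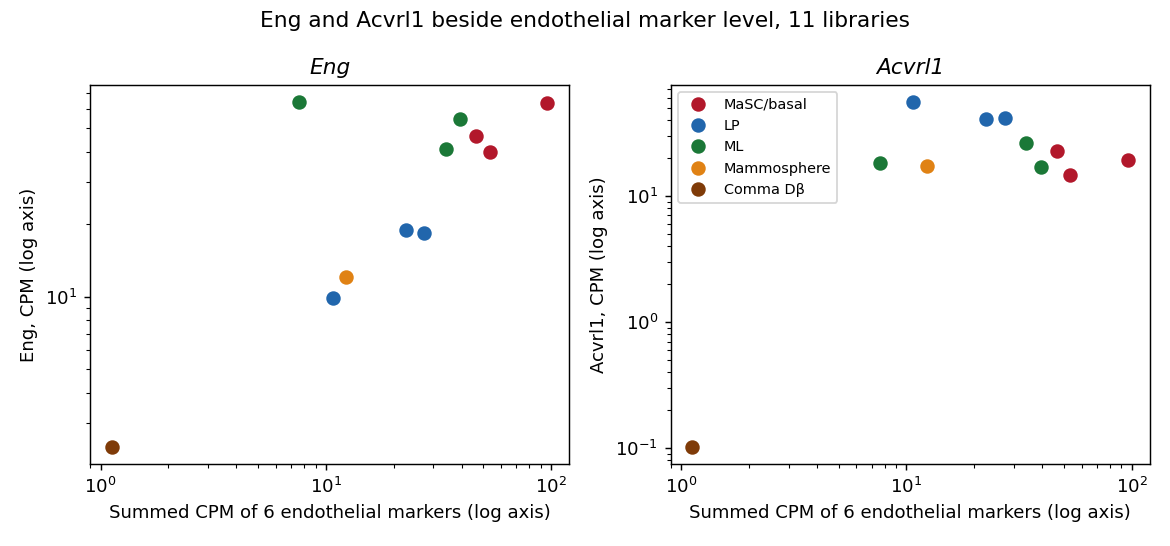
TMM-scaled CPM of Eng (left) and Acvrl1 (right) against the summed CPM of 6 endothelial markers (Pecam1, Cdh5, Kdr, Tek, Emcn and Cldn5), both on log axes, 1 point per library. ML replicate 1 combines the highest Eng (64.2 CPM) with the lowest marker sum of the sorted libraries (7.60 CPM), and the LP libraries hold the highest Acvrl1.

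Among the type II receptors, Acvr2a, an activin receptor, fell from 58.2, 65 and 58.6 CPM in MaSC/basal to 34.5, 46.5 and 36.2 CPM in LP and 21.7, 27.6 and 25.3 CPM in ML libraries, without overlap. The differences were 0.63 log2 units (SE 0.15, adjusted p = 0.0046) from LP, 1.28 log2 units (SE 0.15, adjusted p = 4.83e-05) from ML, and 0.65 log2 units (SE 0.15, adjusted p = 0.00995) between LP and ML cells. Tgfbr2, the TGF-beta type II receptor, ranged from 118 to 295 CPM and was higher in ML than in MaSC/basal cells by 0.94 log2 units (SE 0.17, adjusted p = 0.000892). Its excess in ML over LP cells, 0.67 log2 units (SE 0.17, adjusted p = 0.0153), was lost without LP replicate 1 (adjusted p = 0.0612) or ML replicate 3 (adjusted p = 0.0522). Tgfbr1 and Tgfbr2, which signal together, therefore differed in opposite directions between ML and MaSC/basal cells. Bmpr2 ranged from 64.7 to 151 CPM, with MaSC/basal replicate 3 highest. Its excess in MaSC/basal over LP, 0.58 log2 units (SE 0.21, adjusted p = 0.0355), and over ML cells, 0.65 log2 units (SE 0.21, adjusted p = 0.0219), was lost with library batch as a replicate block (adjusted p = 0.0864 and 0.0619), the former also without MaSC/basal replicate 3, any LP library or ML replicate 1 (adjusted p from 0.0501 to 0.111) and the latter without ML replicate 1 (adjusted p = 0.0669). Acvr2b (1.52 to 4.11 CPM) passed in no comparison.

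Tgfbr3, the co-receptor betaglycan, which presents TGF-beta2 and inhibin, was among the strongest markers of MaSC/basal cells in the list. Its level was 548, 616 and 625 CPM in MaSC/basal, 37.7, 46.7 and 38.6 CPM in LP and 14, 21.4 and 14.1 CPM in ML libraries, and the 3 populations were apart. MaSC/basal exceeded LP by 3.86 log2 units (SE 0.20, adjusted p = 4.3e-07), or 14.5-fold, and ML by 5.17 log2 units (SE 0.22, adjusted p = 1.21e-07), or 36-fold, and LP exceeded ML by 1.31 log2 units (SE 0.19, adjusted p = 0.00125). Tgfbr3 spans chr5:107106567-107289629 (mm10).

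Among the SMADs, Smad1 and the sparsely counted Smad9 were higher in MaSC/basal cells, and Smad2 and Smad3 were lower. Smad1 was at 146, 121 and 221 CPM in MaSC/basal, 32.1, 41.2 and 35 CPM in LP and 38.1, 43.1 and 41.1 CPM in ML libraries. MaSC/basal libraries lay above all luminal ones, by 2.17 log2 units (SE 0.21, adjusted p = 1.59e-05) over LP and 2.00 log2 units (SE 0.21, adjusted p = 2.39e-05) over ML. Smad9 was low throughout, with 102, 134 and 63 reads in MaSC/basal, 11, 15 and 10 in LP and 2, 6 and 2 in ML libraries. MaSC/basal was higher than LP by 2.27 log2 units (SE 0.40, adjusted p = 0.000767) and than ML by 4.58 log2 units (SE 0.48, adjusted p = 2.01e-05), and LP was higher than ML by 2.31 log2 units (SE 0.52, adjusted p = 0.00885). The size of the ML differences rests on these few reads. Outside MaSC/basal cells, Smad9 was above 0.5 CPM only in LP replicate 3 (0.534 CPM) and Comma Dβ (0.85 CPM). It thus passed the low-count filter, which asked for 3 libraries, only through its MaSC/basal level. With a level as low there as in luminal cells it would not have been tested, so its calls say nothing about BMP-branch SMADs as a group. Smad3 was at 84.3, 94.1 and 129 CPM in MaSC/basal, 159.62, 197 and 120.39 CPM in LP and 203, 247 and 171 CPM in ML libraries. ML exceeded MaSC/basal cells by 1.01 log2 units (SE 0.23, adjusted p = 0.00314), while the LP excess, 0.63 log2 units (SE 0.22, adjusted p = 0.0341), overlapped between libraries and was lost without MaSC/basal replicate 1 or 2 or LP replicate 1 or 2 (adjusted p from 0.0632 to 0.131).

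The other SMADs stayed within a narrow range: 64.7 to 102 CPM for Smad2, 99.3 to 151 CPM for Smad4 and 99.3 to 166 CPM for Smad5. Smad2 was lower in MaSC/basal than in LP by 0.41 log2 units (SE 0.13, adjusted p = 0.0179) and than in ML by 0.37 log2 units (SE 0.13, adjusted p = 0.026). The first call was lost without MaSC/basal replicate 1 (adjusted p = 0.0643) or LP replicate 2 (adjusted p = 0.0613), and the second without any MaSC/basal library or ML replicate 1 or 2 (adjusted p from 0.056 to 0.0851). Smad4 was higher in LP than in MaSC/basal by 0.35 log2 units (SE 0.12, adjusted p = 0.0273) and than in ML by 0.38 log2 units (SE 0.12, adjusted p = 0.0311), calls lost without LP replicate 1 (adjusted p = 0.0814 and 0.0867). The former was also lost without MaSC/basal replicate 1 or 3 (adjusted p = 0.0829 and 0.0743), and the latter without LP replicate 2, ML replicate 1 or ML replicate 3 (adjusted p = 0.0598, 0.104 and 0.113). Smad5 was lower in LP than in ML by 0.59 log2 units (SE 0.12, adjusted p = 0.0061) and than in MaSC/basal by 0.39 log2 units (SE 0.12, adjusted p = 0.019), the latter lost without LP replicate 1 (adjusted p = 0.0609) or 3 (adjusted p = 0.0625). Without composition scaling, the calls of Smad2, Smad3 and Smad4 against LP cells were lost (adjusted p = 0.105, 0.0639 and 0.162), as was that of Smad4 between LP and ML cells (adjusted p = 0.171). Both calls of Smad4 were also lost with no filter beyond 1 read (adjusted p = 0.0516 and 0.0699).

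Among the intracellular and membrane inhibitors, Smad6, Smad7 and Bambi were higher in MaSC/basal than in LP and ML cells. Skil passed against ML alone. Thus 3 of 4 were higher than in LP (29.4% of all genes) and 4 of 4 than in ML cells (28.9%). Nothing is read from the counts of so few genes about inhibitors as a group. Smad6, whose promoter carries the GTCTAGAC palindrome shown above, was at 26.4, 25.1 and 29.7 CPM in MaSC/basal, 5.36, 6 and 4.64 CPM in LP and 4.66, 6.25 and 6.88 CPM in ML libraries. The luminal populations overlapped each other and lay below MaSC/basal, by 2.34 log2 units (SE 0.19, adjusted p = 5.38e-06) for LP and 2.19 log2 units (SE 0.19, adjusted p = 6.75e-06) for ML. Smad7 was at 271, 323 and 372 CPM in MaSC/basal, 157, 147 and 119.53 CPM in LP and 161, 149.64 and 128 CPM in ML libraries, lower by 1.19 log2 units (SE 0.17, adjusted p = 0.000163) and 1.14 log2 units (SE 0.17, adjusted p = 0.0002). Bambi, a pseudoreceptor without a kinase domain, was at 45.6, 58 and 33.3 CPM in MaSC/basal, 22.7, 20.1 and 17.6 CPM in LP and 4.35, 8.21 and 8.88 CPM in ML libraries. The populations did not overlap, and the differences were 1.18 log2 units (SE 0.28, adjusted p = 0.00436) from LP, 2.68 log2 units (SE 0.29, adjusted p = 2.8e-05) from ML and 1.50 log2 units (SE 0.28, adjusted p = 0.00421) between LP and ML. Skil, which encodes the SMAD co-repressor SnoN, was at 985, 947 and 907 CPM in MaSC/basal, 1371, 985 and 1019.53 CPM in LP and 579.89, 645 and 566 CPM in ML libraries. ML lay below MaSC/basal by 0.67 log2 units (SE 0.17, adjusted p = 0.00645) and below LP by 0.91 log2 units (SE 0.17, adjusted p = 0.00373). LP lay above MaSC/basal by 0.25 log2 units, which did not pass the test (adjusted p = 0.228).

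Of the secreted antagonists, Fst and Nog were higher in MaSC/basal cells. Fst (chr13:114452262-114458989, mm10) encodes follistatin, which binds activins. Its level was 966, 713 and 1038 CPM in MaSC/basal, 24.1, 63.4 and 72.1 CPM in LP and 63.2, 48.9 and 57.5 CPM in ML libraries. The lowest MaSC/basal library was far above the highest luminal one. The excess was 4.09 log2 units (SE 0.38, adjusted p = 1.11e-05), or 17-fold, over LP and 4.00 log2 units (SE 0.38, adjusted p = 1.1e-05), or 16-fold, over ML cells. Fst and the activin subunit gene Inhbb were thus high in different populations. Nog, the BMP antagonist noggin, was counted in 105, 118 and 60 reads in MaSC/basal, 14, 8 and 2 in LP and 9, 19 and 2 in ML libraries. Its excess in MaSC/basal was 2.80 log2 units (SE 0.55, adjusted p = 0.00161) over LP and 3.02 log2 units (SE 0.55, adjusted p = 0.000849) over ML. Nog passed the low-count filter only through the 3 MaSC/basal libraries, as every luminal library held 0.493 CPM or less. With a level as low in MaSC/basal cells it would not have been tested, so its calls say nothing about antagonists as a group. Chrd (chordin, 0.669 to 2.41 CPM) passed in no comparison, and Grem1, a BMP antagonist of connective tissue, was counted in 10, 17 and 12 reads in MaSC/basal, 0, 0 and 1 in LP and 2, 0 and 7 in ML libraries.

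Both cultured libraries held lower levels than MaSC/basal cells of most antagonists and inhibitors that marked those cells. Those genes were picked by their high level in the same MaSC/basal libraries, which favours lower values in culture. Of the other antagonists, Chrd differed by 0.02 in mammospheres and -0.14 in Comma Dβ on the log2 scale, and Grem1 was higher in both. The summed level of the 5 basal markers was lower, at 4534 CPM in the mammosphere and 2686 CPM in the Comma Dβ library against 13706 to 17578 CPM in MaSC/basal libraries. Krt5 was lower by 1.60 and 2.66 on the log2 scale, Krt14 by 1.17 and 3.31, Trp63, which encodes the basal transcription factor p63, by 1.64 and 2.62, and smooth muscle actin Acta2 by 5.58 and 3.66, whereas Itgb1, which encodes CD29, differed by 0.07 and 0.15. The part of this difference in the levels of the members was not tested. A member was counted as past the fold where its log2 CPM differed from the MaSC/basal mean by more than 1 and lay outside the 3 MaSC/basal libraries, a description with no test as each type had 1 library. In mammospheres, 5 of 42 members were higher (19.6% of all genes tested) and 17 lower (20%), and without composition scaling, which moves all genes up by 0.22, 8 were higher and 14 lower. In Comma Dβ, 5 were higher (16.9%) and 22 lower (24.8%), or 6 and 20 without scaling, with a shift of 0.29. The median difference over the members was -0.15 in mammospheres and -1.09 in Comma Dβ, beside -0.01 and 0.02 over all genes. Lower in both were 16 members: Bmp7, Ltbp2, Ltbp4, Tgfbr1, Bmpr1b, Acvr1, Tgfbr3, Eng, Smad1, Smad9, Smad6, Smad7, Skil, Bambi, Nog and Fst. Both cultured types were set against the same MaSC/basal libraries, and the share of all genes lower or higher in both was not computed. Nothing is therefore read from the number of members that moved in both. Nog and Smad9 are among them only because their MaSC/basal levels took them past the low-count filter. The mammosphere library shared batch 1 with MaSC/basal replicate 1, whereas batch 3, that of Comma Dβ, held no MaSC/basal library, so batch and line cannot be told apart. Only Inhbb was higher in both, and Bmp4 and Bmp6 moved in opposite directions.

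**Figure D5:**
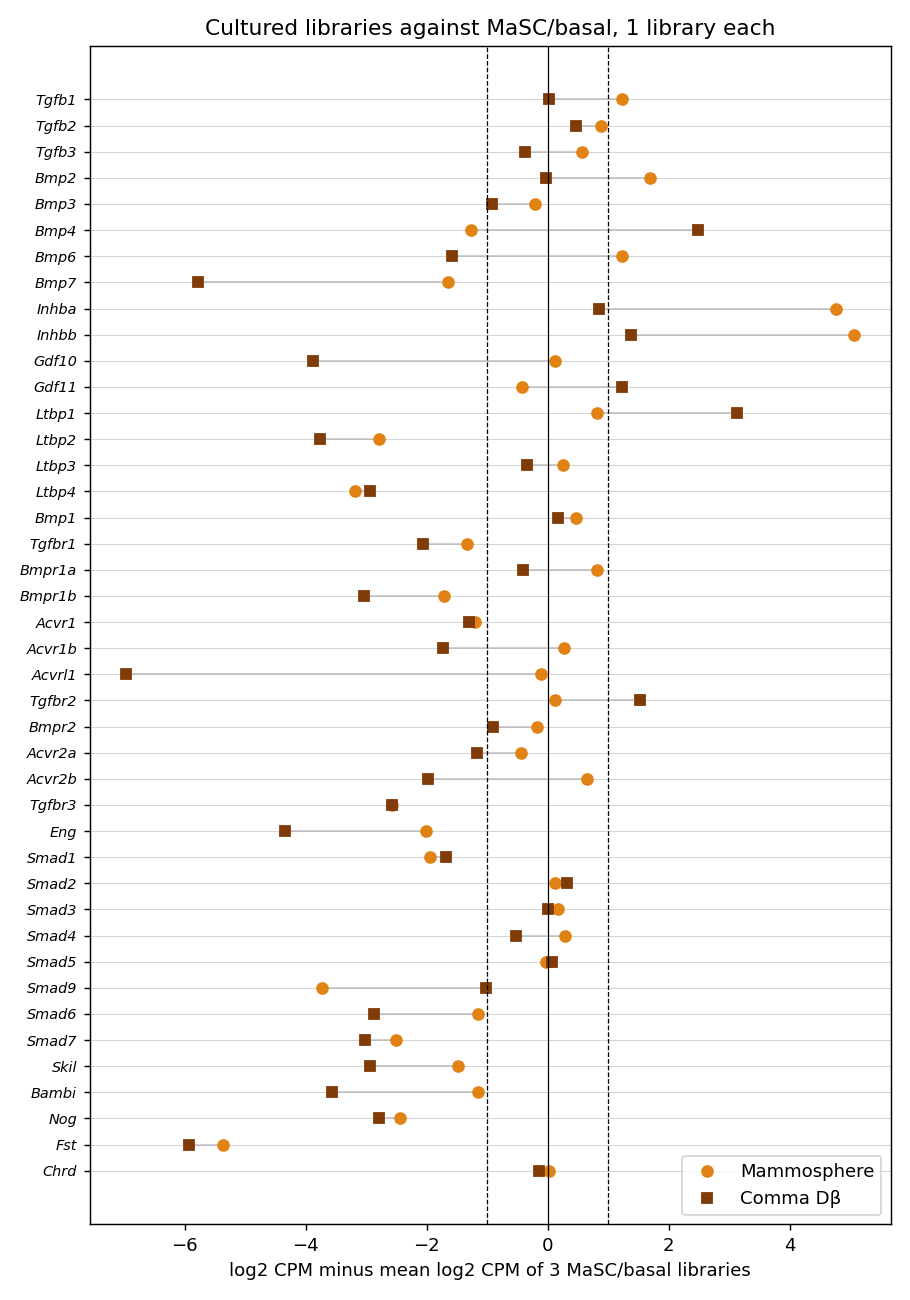
Difference in log2 CPM of the mammosphere (circles) and Comma Dβ (squares) libraries from the mean of 3 MaSC/basal libraries, for the 42 members tested, with dashed lines at a difference of 1 in either direction. Fst lies far to the left for both (-5.36 and -5.94), Acvrl1, counted in 3 reads, lies farthest left for Comma Dβ, and Inhba and Inhbb lie at the far right for mammospheres (4.76 and 5.06).

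Fst fell furthest of the antagonists, to 21.7 CPM in the mammosphere and 14.6 CPM in the Comma Dβ library, from 713 CPM or more in each MaSC/basal library, a decrease of 5.36 and 5.94 on the log2 scale. These levels were below those of every luminal library too. Tgfbr3 was at 99.3 and 100.13 CPM, lower by 2.58 and 2.57. Bmp7 was at 47.4 CPM in the mammosphere and 2.65 CPM in the Comma Dβ library, lower by 1.65 and 5.79. Mammospheres thus kept Bmp7 above all luminal libraries, whereas the line lay within their range. Ltbp2 was at 139.82 and 71.4 CPM, lower by 2.79 and 3.76, and Ltbp4 at 32.5 and 38.6 CPM, lower by 3.18 and 2.93. Among the inhibitors, Smad7 was at 56 and 39.1 CPM, lower by 2.51 and 3.03 and below every sorted library. Skil was at 338 and 124 CPM, lower by 1.48 and 2.93, also below every sorted library. Bambi was at 19.96 and 3.71 CPM, lower by 1.15 and 3.57, and Smad6 at 12.1 and 3.64 CPM, lower by 1.16 and 2.87. The mammosphere differences of Smad6 and Bambi, and that of Acvr1, were within 1 without composition scaling.

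Further members fell in both cultures. Smad1 was at 41 CPM in the mammosphere and 49.1 CPM in the Comma Dβ library, lower by 1.94 and 1.68. Bmpr1b was at 1.87 and 0.714 CPM, lower by 1.71 and 3.04, and Nog at 0.27 and 0.204 CPM, lower by 2.44 and 2.78. Tgfbr1 was at 80.7 and 48.6 CPM, lower by 1.33 and 2.06, and Acvr1 at 63 and 58.9 CPM, lower by 1.20 and 1.30. Smad9 was counted in 4 reads in mammospheres, where MaSC/basal cells held 20.7 times as much (exact Poisson 95% interval 8.07 to 75.8, counting error of the mammosphere reads only), and was lower by 1.01 in Comma Dβ. Eng was at 12.1 and 2.38 CPM, lower by 2.02 and 4.34, while the 6 endothelial markers summed to 12.3 CPM in the mammosphere library and 1.12 CPM in that of Comma Dβ, and the part of endothelial cells in this difference was not tested.

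Mammospheres stood apart by their activin subunits. Inhba was at 172 CPM, above every sorted library, and exceeded the MaSC/basal mean by 4.76. Inhbb was at 369.73 CPM, higher than MaSC/basal by 5.06 and above the LP and ML libraries too. The luminal keratin genes and other luminal markers summed to 2831 CPM in mammospheres, against 1317 to 1605 CPM in MaSC/basal and 10024 to 12038 CPM in luminal libraries. Tgfb1 (89.8 CPM, higher by 1.23), Bmp2 (8.43 CPM, higher by 1.69) and Bmp6 (2.19 CPM, higher by 1.23) completed the 5 higher members, all of which are ligands. Bmp4 was lower by 1.27 at 0.563 CPM. Without composition scaling, Tgfb2, Ltbp1 and Bmpr1a also passed the fold.

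Comma Dβ cells had a different set of higher members. Ltbp1 was at 288 CPM, above every sorted library, and exceeded MaSC/basal by 3.13. Bmp4 was at 8.2 CPM, higher by 2.48, Tgfbr2 at 385 CPM, higher by 1.52, Inhbb at 28.5 CPM, higher by 1.37, and Gdf11 at 16.3 CPM, higher by 1.22. Acvrl1 was counted in 3 reads, and MaSC/basal cells held 185 times its level (exact Poisson 95% interval 63.4 to 899, for the 3 reads alone). Gdf10 was likewise counted in 3 reads, and MaSC/basal cells held 21.2 times its level (7.27 to 103). Acvr1b, Acvr2b, Acvr2a and Bmp6 were lower by 1.73, 1.97, 1.16 and 1.58, and Acvr2a and Smad9 were within 1 without composition scaling.

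Grem1 did not pass the low-count filter, which asked for 3 libraries, but was plain in both cultures. It was at 22.1 CPM (979 reads) in mammospheres and 53.1 CPM (1560 reads) in Comma Dβ, against 0.17, 0.339 and 0.226 CPM in MaSC/basal libraries, a ratio to their mean of 90.1 and 217. Fibroblast markers, 6 in all, summed to 2353 CPM in the mammosphere library and 3577 CPM in that of Comma Dβ, against 393 to 678 CPM in MaSC/basal libraries. Of these, Col1a1 reached 837 and 808 CPM, while Lum and Dpt were at 0.680 and 1.09 CPM in Comma Dβ and 48.5 and 43.1 CPM in mammospheres. The part of fibroblasts in the Grem1 level of mammospheres was not tested. Bmp5, the other untested member, was at 0.676 CPM (30 reads) in mammospheres.

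Beyond the 44 members, 80 other genes of the superfamily and its targets were examined in lists, of which 61 were tested. MaSC/basal cells were higher than LP in 21 and lower in 17, higher than ML in 22 and lower in 10, and LP were higher than ML in 21 and lower in 8. In the same order 29.4% and 28%, 28.9% and 29.7%, and 14.3% and 17.5% of all genes were called, so that the counts against LP lie near the background. Of 19 other extracellular modulators tested, 8 were higher in MaSC/basal and 6 in LP cells, and 9 were higher in MaSC/basal and 1 in ML cells. The BMP antagonist Sostdc1 was at 34.5, 49.7 and 19.98 CPM in MaSC/basal and 0.0705, 0.729 and 0.587 CPM in LP libraries, an excess of 6.16 log2 units (SE 0.71, adjusted p = 4.81e-05). Fstl1, a follistatin-like glycoprotein, was higher in MaSC/basal than in ML cells by 4.91 log2 units (SE 0.47, adjusted p = 1.24e-05), and the microfibril gene Fbn1 by 4.59 log2 units (SE 0.49, adjusted p = 2.47e-05). Chrdl2, a chordin-like antagonist, was higher in LP than in MaSC/basal cells by 5.15 log2 units (SE 0.91, adjusted p = 0.000792) and than in ML by 3.24 log2 units (SE 0.81, adjusted p = 0.0143). Itgb6, an integrin subunit that activates latent TGF-beta, was higher in LP than in MaSC/basal by 2.02 log2 units (SE 0.19, adjusted p = 1.14e-05). Of 7 other ligands tested, Gdf6 was higher in MaSC/basal than in LP cells, which held 2, 6 and 1 reads of it, by 4.34 log2 units (SE 0.42, adjusted p = 1.34e-05), and Gdf5 was higher in LP than in MaSC/basal by 3.02 log2 units (SE 0.42, adjusted p = 0.000169). Gdf6 passed the low-count filter only through its MaSC/basal level, and Gdf5 and Chrdl2 only through their LP levels. Without those levels they would not have been tested, so their calls say nothing about ligands or antagonists as groups.

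Among 18 target genes, 8 were higher in MaSC/basal and 3 in LP cells, 7 were higher in MaSC/basal and 3 in ML cells, and 5 were higher in LP and 3 in ML cells, where the shares of all genes were 29.4% and 28%, 28.9% and 29.7%, and 14.3% and 17.5%. The largest MaSC/basal excesses over ML cells were those of Snai2, an EMT transcription factor, 7.24 log2 units (SE 0.52, adjusted p = 1.88e-06), of Tgfb1i1, which encodes the focal adhesion protein Hic-5, 6.13 log2 units (SE 0.20, adjusted p = 5.26e-08), and of Id4, an inhibitor of bHLH factors, 6.12 log2 units (SE 0.45, adjusted p = 2.06e-06). In the opposite direction, the homeobox gene Msx2, a BMP target, was at 47.3, 35 and 65.2 CPM in ML against 0.559, 0.478 and 0.527 CPM in MaSC/basal libraries, an excess of 6.55 log2 units (SE 0.51, adjusted p = 3.09e-06), and Cdkn2b and Id3 were higher in ML by 2.22 log2 units (SE 0.37, adjusted p = 0.000514) and 1.55 log2 units (SE 0.33, adjusted p = 0.00254). Id1, the classical BMP target, was higher in LP than in MaSC/basal cells by 1.17 log2 units (SE 0.32, adjusted p = 0.0103) and than in ML by 1.61 log2 units (SE 0.33, adjusted p = 0.00552). Of 15 other intracellular regulators, 4 were higher in MaSC/basal and 6 in LP cells, and 4 were higher in MaSC/basal and 3 in ML cells. Nedd4l, a ubiquitin ligase acting on activated SMAD2 and SMAD3, was higher in LP than in MaSC/basal cells by 3.01 log2 units (SE 0.21, adjusted p = 1.94e-06), and Tgif2, a SMAD co-repressor, was higher in MaSC/basal than in ML by 1.90 log2 units (SE 0.30, adjusted p = 0.000346). Tgif1 went the other way, higher than in MaSC/basal cells by 1.28 log2 units in LP (adjusted p = 0.000138) and by 0.85 log2 units in ML cells (adjusted p = 0.0018). Of 2 other receptors and co-receptors tested, the BMP co-receptor Rgma was higher in MaSC/basal and in LP than in ML cells, by 1.24 log2 units (SE 0.34, adjusted p = 0.00997) and 1.16 log2 units (SE 0.34, adjusted p = 0.0273).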

How the data were processed

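Libraries of 11 samples were sequenced as single-end reads. The deposited values were raw counts per gene, which the authors made with Rsubread and featureCounts on mm10; whether strand was used in counting is not given in the sources used here. The labels name TruSeq v1 for batch 1 and v2 for batches 2 and 3.

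From the counts, genes over 0.5 CPM in at least 3 libraries (15422 of 27179) were fitted with edgeR 4.0.16 (R 4.3.3; TMM scaling on full library totals of 19958838 to 75795034 reads, quasi-likelihood test) in 1 model with a mean for each of 5 sample types. P-values were adjusted over all genes tested (Benjamini-Hochberg, threshold 0.05). CPM values are TMM-scaled and RPKM are divided by the deposited gene length. Differences of cultured libraries used log2 CPM with a prior count of 2. Limma 3.58.1 (voom) and DESeq2 1.42.0 were alternatives, with other scalings and filters, the 9 sorted libraries by themselves, a replicate block for library batch and each sorted library left out in turn. The test was tried on simulated counts. Gene positions and promoters came from RefSeq, and exon overlaps from GENCODE vM21.

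The labels tie libraries by batch. Same-batch libraries of different populations had deviations from their population means that correlated at -0.12 to 0.53 (9 pairs), against -0.42 to 0.11 in 18 pairs of different batches.

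Members were called by role. A member was given with all its values if it passed with a log2 fold change over 1 in size in a sorted comparison, or differed by over 2 log2 units between a cultured library and the MaSC/basal mean; the others were given by range. Of each further list, up to 3 called genes per direction with the largest log2 fold change were named. The members and lists were chosen with earlier results of these data known. The 3 libraries of each sorted population are independent samples per the study's methods, and intervals on reads cover counting error only.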

Additional observations from a re-analysis of the deposited data

How the results depend on the processing

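The numbers of members called were close under the alternatives that kept every sorted library: 27 to 31 for MaSC/basal against LP, 28 to 30 for MaSC/basal against ML and 20 or 21 for LP against ML. With a replicate block for library batch they were 30, 28 and 21, and the block ended no call other than those of Bmpr1a and Bmpr2. Leaving out single sorted libraries moved them further, to 26 to 30, 24 to 28 and 16 to 21. Alternatives numbered 17, 9 of them omissions of a library. Of 80 calls, 15 were lost at least once and 65 were never lost where their gene was tested. Nog fell below the low-count filter whenever a MaSC/basal library was left out, and Bmp6 under a stricter filter, so their calls were not tested there. Of the 56 calls with a log2 fold change over 1 in size, 3 were lost where tested, those of Bmp6 (MaSC/basal against ML), Tgfb2 and Gdf11 (LP against ML). No called fold change changed sign. Without composition scaling the median of all genes moved by 0.15, -0.02 and -0.17 in the comparisons of MaSC/basal with LP, MaSC/basal with ML and LP with ML, and the members higher in mammospheres rose from 5 to 8. The counts past the fold stayed at 21 to 24 in mammospheres and 26 to 28 in Comma Dβ. The cultured types had 1 library each, so their spread is unknown. At these depths, members under about 1 CPM, such as Bmp5, Smad9 in ML cells and Nog in luminal cells, rest on few reads.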
